A study of Mus musculus with 6 samples.

Results

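The BCL2 family genes described here are 10 genes found by symbol among the 21881 genes of 2 deposited tables from mouse leukemia cells. They are 3 survival genes (Bcl2, Bcl2l1 and Mcl1), 2 effector genes (Bax and Bok) and 5 BH3-only genes (Bcl2l11, Bmf, Bbc3, Pmaip1 and Bid). RNA-seq was carried out on AE9a leukemia cells of strain C57/B6X129SV, in which the driver is a truncated AML1-ETO fusion protein. In every group, controls included, the cells carry CreER, a Cre recombinase activated by tamoxifen metabolites, and Id1 alleles flanked by loxP sites, although the titles of the CBD samples write Id1 without "fl". There are 6 samples, 2 in each of 3 groups. Beside control cells, 1 group received 15 µM CBD for 16 h and the other received 0.1 µM of 4-hydroxytamoxifen (4-OHT) for 48 h. CBD is described by the submitters as an Id1 inhibitor and the abbreviation is not spelled out. The labels give no vehicle for the controls, no 4-OHT arm without loxP sites, and no promoter for CreER, and they leave unsaid whether samples sharing a group came from separate cultures.

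Cells commit to the mitochondrial route of cell death when the effectors BAX and BAK form pores in the outer mitochondrial membrane and release cytochrome c. Survival proteins such as BCL2, BCL-XL and MCL1 hold effectors and BH3-only proteins in check. BH3-only proteins are the sensors: transcription raises BIM, BMF, PUMA and NOXA in response to growth factor loss, loss of attachment, stress or p53, while BID is cleaved by caspase-8. Blood cell leukemias often depend on 1 or more of the survival proteins.

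Each table holds 1 FPKM value (fragment number relative to the length of the transcript and the size of the library) for a control and 1 for a treated group, with the p and q of the authors' Cuffdiff test. Neither single libraries nor their depths are used here, so no SD, n or interval stands beside a value, and the precision behind each FPKM is unknown. The description of each control sample names 1 of the tables, while the column headers name no sample. Whether a control column, and the q that rests on it, comes from 1 control library or more is therefore not known. "Rose" and "fell" below are used for genes whose q lies under 0.05 in the authors' deposited table. Since the control columns of the separately made tables differ, each member's treated value is set against both, and for other genes that passed it is said whether the direction held against the other table's control. All log2 folds are of FPKM with a pseudocount of 0.1 added to both sides, which understates the change of low genes. Differences written as "-fold" or "times" are plain ratios of FPKM.

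The labels and the markers of the cells were compared first. Id1, the targeted gene, stood at 15.4 FPKM in the control and 0.741 with 4-OHT, and at 34.2 and 11.95 FPKM in the control and CBD columns of the other table. The difference with CBD did not pass (q = 0.133 in the authors' deposited table), and the control columns are over 2-fold apart. Kit (95.6 FPKM in the control of the 4-OHT table), Myb, Gata2 and Runx1 were high in all 4 columns, while the granule genes Elane and Mpo and the pan-leukocyte gene Ptprc were listed at 0 or stood under 0.5 FPKM in all 4. The CBD column also held transcripts that mark other tissues. Of 10 neuron markers 8 rose with CBD, as did 4 of 5 oligodendrocyte and 6 of 6 astrocyte markers, with q under 0.05 by the authors' deposited table. Summed over the list, the FPKM of the neuron markers was 207.5 with CBD and 19.5 to 38.1 in the other 3 columns, and that of the astrocyte markers 50.2 against 2.51 to 3.32. Rbfox3 and Mog are listed at 0 in the control of the CBD table and stood at 2.76 and 7.23 FPKM with CBD. Of 5 tested macrophage markers Csf1r and C1qa rose with CBD, and of 5 tested stromal markers Col1a2, Pecam1 and Sparc did, by the authors' deposited table. The summed FPKM was 16.96 with CBD against 1.16 to 1.59 for the macrophage list and 20.97 against 1.01 to 1.97 for the stromal list. The part of these transcripts in the CBD values below was not tested. Fewer cells of a type and less RNA per cell cannot be told apart in such bulk samples.

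The promoters of the 4 members that moved most between columns (Bok, Bcl2l11, Bmf and Bbc3), and that of Bax, the member that rose with CBD, are shown because the members' transcript levels are what these data measure. Each runs 5′ to 3′ up to the most upstream transcription start in the RefSeq table of GRCm38.p6, a later build than the mm9 of the expression tables. Capitals mark E-boxes (CANNTG, a core bound by many factors, among them the E proteins that ID1 holds off DNA), the FoxO core (TGTTTAC or GTAAACA) and the ATF4 and CHOP composite (TGATGNAA or TTNCATCA), searched on both strands.
Bok, chr1:93685325-93685574, plus strand: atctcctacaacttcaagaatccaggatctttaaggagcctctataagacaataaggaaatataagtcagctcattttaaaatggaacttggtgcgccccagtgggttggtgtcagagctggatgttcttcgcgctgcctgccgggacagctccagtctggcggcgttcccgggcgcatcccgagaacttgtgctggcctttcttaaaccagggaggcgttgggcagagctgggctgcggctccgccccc
Bcl2l11, chr2:128125788-128126037, plus strand: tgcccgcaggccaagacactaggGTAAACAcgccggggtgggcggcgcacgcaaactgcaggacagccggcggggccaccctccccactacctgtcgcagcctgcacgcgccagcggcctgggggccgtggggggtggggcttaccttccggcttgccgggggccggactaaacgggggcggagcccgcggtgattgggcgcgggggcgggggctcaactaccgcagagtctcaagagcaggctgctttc
Bmf, chr2:118549688-118549936, minus strand: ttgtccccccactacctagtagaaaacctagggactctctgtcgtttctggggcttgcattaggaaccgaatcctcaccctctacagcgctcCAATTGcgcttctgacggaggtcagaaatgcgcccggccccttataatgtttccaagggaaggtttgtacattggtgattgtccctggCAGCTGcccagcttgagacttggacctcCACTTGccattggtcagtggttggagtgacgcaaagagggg
Bbc3, chr7:16309333-16309582, plus strand: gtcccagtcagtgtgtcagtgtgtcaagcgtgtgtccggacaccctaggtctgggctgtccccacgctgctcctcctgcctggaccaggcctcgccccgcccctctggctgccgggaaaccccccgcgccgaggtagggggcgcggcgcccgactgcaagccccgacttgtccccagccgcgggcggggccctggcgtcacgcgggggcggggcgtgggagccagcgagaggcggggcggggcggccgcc
Bax, chr7:45466899-45467148, minus strand: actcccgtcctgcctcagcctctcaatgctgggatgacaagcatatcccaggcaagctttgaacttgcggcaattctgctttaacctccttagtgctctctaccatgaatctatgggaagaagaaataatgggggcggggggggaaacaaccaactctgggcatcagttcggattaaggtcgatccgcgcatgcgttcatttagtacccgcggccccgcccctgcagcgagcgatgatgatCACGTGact
The Bcl2l11 window holds 1 FoxO core, the Bmf window 3 E-boxes, and the Bax window 1 E-box, while no searched motif occurs in the Bok and Bbc3 windows. Pmaip1 was left out of the motif counts of the members. Over the 16 start sites listed for the other 9 members, E-boxes occur in the upstream 250 bases of 10 windows (62.5%), from 5 genes, against 66.2% of all 32817 promoters. The FoxO core occurs in 2 windows (12.5%), of Bcl2l11 and, at another of its starts, of Bbc3, against 3.16% of all promoters, and the ATF4 and CHOP composite in none, against 3.45%. Windows of 1 gene can overlap and are not independent. The Bcl2l11 and Bbc3 windows are 72% and 76.4% G and C, those of Bok, Bmf and Bax 55.2%, 53.8% and 54%, and the median over all promoters is 52.4%. A match describes letters in a window and is neither a bound site nor a cause.

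FPKM is a scale per transcript length, so the members can be put in order within a column. Bax and Mcl1 stood highest, Bid came next and Bcl2l1, which encodes BCL-XL, followed Bid in every column. Bcl2 itself was low, and Bcl2l1 exceeded it 5.47-fold to 12.8-fold. Bcl2l11, Bmf and Bok stood under 5 FPKM throughout. Pmaip1, which encodes the BH3-only protein NOXA, is listed at 0 in 3 columns and at 0.0349 FPKM with CBD, was not tested in either table, and has no fold here. The other 9 members were tested in both tables. With no spread per column, which neighbours in this order differ cannot be said.

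**Figure D1:**
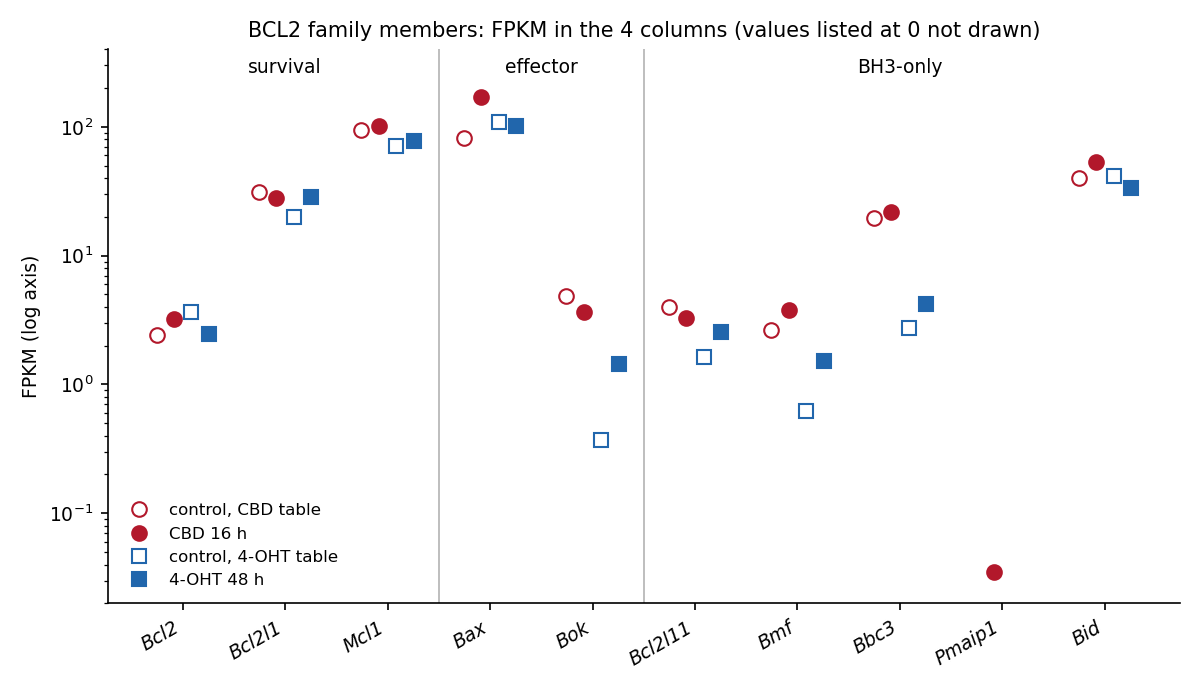
FPKM (log axis) of each member in the control and CBD columns of 1 table (circles) and the control and 4-OHT columns of the other (squares), 1 value per group without error bars. Bok, Bcl2l11, Bmf and Bbc3 lie higher in both columns of the CBD table than in both columns of the 4-OHT table, and Pmaip1 has a drawn value only with CBD.

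With CBD, Bax was the only member to rise, and none fell. Bax, the pore-forming effector on chromosome 7 (52717065 to 52722268 in mm9), stood at 81.7 FPKM in the control and 169 with CBD, and at 108 and 102 FPKM in the control and 4-OHT columns of the other table. The CBD value is thus the highest of the 4. This is a 2.07-fold difference (log2 fold 1.05), and its q is 0.000343 in the authors' deposited table. Relative to the 4-OHT table's control the log2 fold is 0.64. Of all genes tested with CBD 26.2% were called, 18.4% higher and 7.74% lower, so 1 of 9 tested members is no larger share than that of all genes. The median log2 fold of the 9 members was 0.16, and that of all tested genes 0.29.

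Folds in the CBD table declined with transcript length, and Bax is the shortest tested member. Its longest annotated transcript has 1100 bp. The trend was fitted on genes whose FPKM reaches 10 in each control column. Their median log2 fold in the length bin around 1037 bp was 0.44, and it was −0.74 in the longest of 20 bins. With that trend removed, the log2 fold of Bax was 0.65 in place of 1.05. Bcl2, whose longest transcript has 7191 bp, moved the other way, from 0.39 to 0.89. Bcl2, Bok, Bcl2l11, Bmf and Bbc3 do not reach the FPKM limit in each control column, so whether the trend holds at their levels was not tested. The transcripts in use in these cells were not determined. The 4-OHT table showed no such shift for the members: the log2 fold of Bok, the member that moved most there, was 1.70 before and 1.68 after the same step.

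The survival genes did not pass the test with CBD. Mcl1, which encodes a short-lived survival protein, stood at 94.7 and 100.9 FPKM in the control and CBD columns (q = 0.840 in the authors' deposited table). Bcl2l1 stood at 31.04 and 28.1 FPKM (q = 0.769 in the authors' deposited table), and Bcl2 at 2.43 and 3.20 (q = 0.529 in the authors' deposited table). These differences were at most 1.32-fold. Against the control of the 4-OHT table the log2 folds with CBD were 0.51 for Mcl1, 0.49 for Bcl2l1 and −0.18 for Bcl2. Bcl2l1 and Bcl2 thus turned direction.

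Among BH3-only genes none passed with CBD either. Bid stood at 40.1 and 53.2 FPKM (q = 0.256 in the authors' deposited table). Bbc3, which encodes PUMA, stood at 19.5 and 21.8 FPKM (q = 0.787 in the authors' deposited table). Bcl2l11, which encodes BIM, stood at 4.03 and 3.29 FPKM, and Bmf at 2.64 and 3.78, with q of 0.451 and 0.522 in the authors' deposited table. Bok, an effector-like member, stood at 4.90 and 3.67 FPKM (q = 0.788 in the authors' deposited table). A q above 0.05 does not show that these levels were equal: the log2 fold of 0.41 for Bid did not pass with CBD, whereas a smaller one of −0.31 for the same gene passed with 4-OHT.

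With 4-OHT, 8 of 9 tested members passed the test, 6 higher and 2 lower, in a table where 44.1% of all tested genes did, 27.2% higher and 16.9% lower. The members that rose were Bok, Bmf, Bbc3, Bcl2l11, Bcl2l1 and Mcl1, and those that fell were Bcl2 and Bid. Their sizes were modest: Bok and Bmf alone differed by at least 2-fold. The median log2 fold of these 9 was 0.53, and that of all tested genes 0.05. Against the other table's control column, however, that median was −0.29, and Bid alone of the 8 kept its direction.

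Of the BH3-only genes, Bmf rose from 0.620 to 1.52 FPKM, a 2.45-fold difference (q = 1.39e-10 in the authors' deposited table). Its values in the CBD table, 2.64 in the control and 3.78 with CBD, are both higher. Bcl2l11 rose from 1.63 to 2.53 FPKM, 1.55-fold (q = 1.23e-06 in the authors' deposited table), against 4.03 FPKM in the other control. Bbc3, the gene of PUMA, rose from 2.72 to 4.24 FPKM, 1.56-fold (q = 0.000127 in the authors' deposited table). In the other control column Bbc3 stood at 19.5 FPKM, so its log2 fold with 4-OHT is 0.62 against its own control and −2.18 against that one. Bid, the substrate of caspase-8, fell with q = 1.11e-05 in the authors' deposited table, from 41.1 FPKM to 33.3, and also lies below the 40.1 FPKM of the other control.

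Of the effectors, Bok rose from 0.373 to 1.44 FPKM, 3.86-fold (q = 9.46e-05 in the authors' deposited table), while the other control column holds 4.90 FPKM. Bax, at 108 and 102 FPKM, did not pass (q = 0.272 in the authors' deposited table). The 4-OHT column thus has more Bok than its own control and less than the other, at levels far under those of Bax.

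The survival genes went in opposite directions with 4-OHT. Bcl2l1 rose from 19.9 to 28.8 FPKM, 1.44-fold (q = 7.66e-14 in the authors' deposited table). Bcl2 went the other way, from 3.64 FPKM down to 2.48, for a log2 fold of −0.54 and q = 1.67e-07 in the authors' deposited table. Mcl1 rose from 70.7 to 77.6 FPKM, a 1.10-fold difference with q = 0.0429 in the authors' deposited table. The other control column holds 31.04 FPKM of Bcl2l1, 2.43 of Bcl2 and 94.7 of Mcl1, against which all 3 differences point the other way, that of Bcl2 by a log2 fold of 0.0287. The ratio of Bcl2l1 to Bcl2 was 5.47 in the control and 11.6 with 4-OHT, and 12.8 in the other control.

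**Figure D2:**
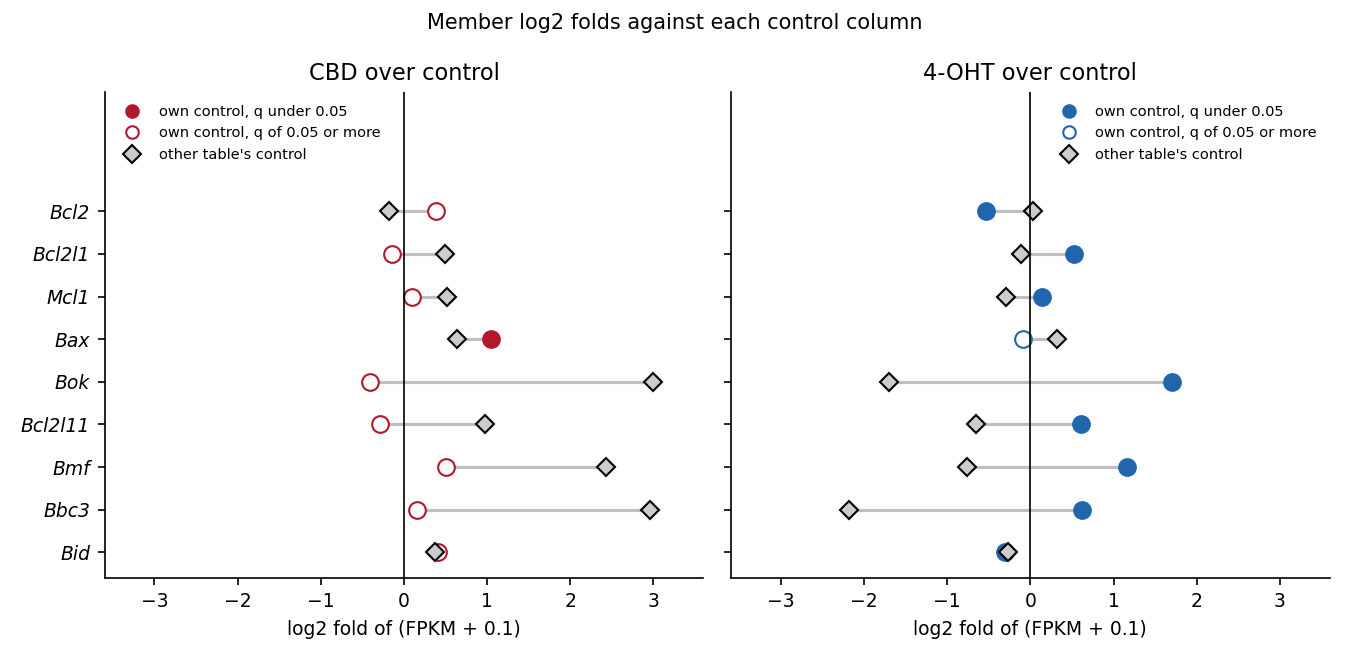
Log2 folds of (FPKM + 0.1) of the 9 tested members with CBD (left) and 4-OHT (right), against the control of the same table (circles, filled where the authors' q is under 0.05) and against the control of the other table (diamonds, not tested). With 4-OHT the 6 filled circles to the right of 0 all have their diamond to the left of 0, and with CBD the circle and the diamond of Bax both lie to the right.

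Bcl2l1 is also a neighbour of the targeted gene. It lies on chromosome 2 from 152606404 to 152657418 in mm9, 43257 bp from the end of Id1, and 1 gene, Cox4i2, is annotated between them in the tables. Id1 fell with 4-OHT (log2 fold −4.21, with 0 as its listed q in the authors' deposited table) while Bcl2l1 rose. Cox4i2 had 0.127 FPKM without and 0.346 FPKM with CBD, was listed at 0 in the control of the 4-OHT table and stood at 0.198 FPKM with 4-OHT, where it was not tested. Bcl2l1 overlaps no other gene of the tables, nor does any other member. Bid and Bcl2l13 lie 276 bp apart.

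For 7 of 9 tested members, all but Bax and Bid, the control columns differed from each other by more (in log2) than either treated column differed from its own control, which was so for 37.9% of the 10867 genes tested in both tables. In the control of the CBD table Bok was 13.1 times, Bbc3 7.18 times, Bmf 4.25 times and Bcl2l11 2.47 times its level in the control of the 4-OHT table. With the pseudocount, the log2 difference of Bok is 3.40 between the controls and 1.70 with 4-OHT. Bok, Bbc3, Bmf and Bcl2l11, 4 of 9 tested members, were at least 2-fold apart with the pseudocount included, all in 1 direction, compared with 11.9% of those genes, 7.36% higher in the CBD table and 4.56% lower. Where both controls reach 1 FPKM, 8.98% of genes were as far apart, and of the 4 members Bbc3 and Bcl2l11 reach that level. The other members were closer, with log2 differences from −0.57 (Bcl2) to 0.64 (Bcl2l1), and Bid (−0.04) was nearly equal. The difference between the controls has no replicate and no test. The labels do not say when each control was harvested.

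Some known regulators of these genes differed between the controls too, and were picked for display after their values were seen. Ddit3, which encodes the stress factor CHOP, stood at 191 FPKM in the control of the CBD table and 26.9 in the control of the 4-OHT table, and Atf4 at 775 and 318. Trp53, whose product p53 induces Bbc3, was the other way round, at 3.99 and 7.22 FPKM. Other listed regulators had no common direction: Foxo3 stood at 26.8 and 17.8 FPKM and Foxo4 at 7.13 and 16.7. Foxo1 stood at 0.974 and 0.950 FPKM, and E2f1 at 22.6 in both controls. Their part in the levels of the members was not tested.

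Across all called genes, 45% of those called with 4-OHT kept their direction against the other control column, as did 1 of the 8 called members. Of all genes called higher with 4-OHT 51.2% also exceeded that column, and none of the 6 members did. Of all genes called lower with 4-OHT 34.9% were also below it, and of the 2 members Bid was and Bcl2 was not. With CBD 98.5% of the genes called higher also exceeded the other control column, Bax among them.

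The shares of the 3 classes in the summed FPKM of the members also differed between columns. Survival members made up 45.6% of the summed FPKM of the 10 members in the control of the CBD table and 34.2% with CBD, and 37.9% and 42.9% in the control and 4-OHT columns of the other table. Effectors made up 30.8% and 44.6% in the CBD table and 43.6% and 40.7% in the 4-OHT table, nearly all of it Bax. BH3-only members made up 23.6%, 21.2%, 18.5% and 16.4% in the same order. Lower shares with CBD were not lower sums. Survival members summed to 128.2 FPKM in its control and 132.2 with CBD, BH3-only members to 66.3 and 82.1, and effectors to 86.6 and 173. In the control and 4-OHT columns of the other table, survival members summed to 94.2 and 108.8 FPKM. BH3-only members summed to 46.1 and 41.6 there, and effectors to 108.5 and 103.3. Of the BH3-only members known to be induced by transcription, Pmaip1 adds 0.0349 FPKM at most, and the summed FPKM of Bcl2l11, Bmf and Bbc3 was 26.2 in the control of the CBD table and 28.9 with CBD, and 4.97 and 8.29 in the control and 4-OHT columns. These shares and sums have no error and were not tested, and they describe RNA, not protein.

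**Figure D3:**
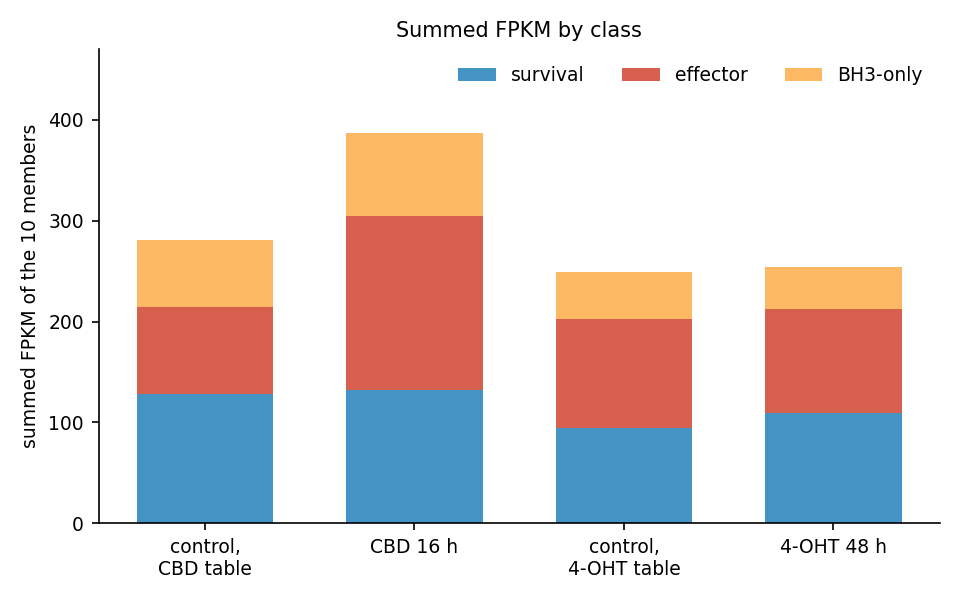
Summed FPKM of the survival, effector and BH3-only members in each of the 4 columns, stacked, with 1 value per column and no error bars. The CBD column is the tallest at 387 FPKM, its effector part being 173 FPKM, against totals of 249 to 281 in the other 3.

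Of the other effector, survival and BH3-only genes of the family, Bcl2l2 alone passed a test. Bak1, the second pore-forming effector, stood at 58.9 and 79.3 FPKM with CBD and at 86.0 and 80.0 with 4-OHT, with q of 0.188 and 0.138 in the authors' deposited table. Bcl2l2, which encodes the survival protein BCL-W, stood at 4.31 and 7.03 FPKM with CBD (q = 0.263 in the authors' deposited table) and rose from 4.72 to 6.50 with 4-OHT (q = 4.72e-06 in the authors' deposited table). That 4-OHT value also exceeds the other control column. The survival genes Bcl2a1a, Bcl2a1b, Bcl2a1c, Bcl2a1d and Bcl2l10 were at 0.318 FPKM or less in all 4 columns, and the 4 Bcl2a1 values are uncertain because these near-identical copies share reads.

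Of the other BH3-only genes, Bad stood at 15.3 to 32.3 FPKM and Bik at 17.7 to 28.0 over the 4 columns, and neither passed a test. Hrk, a BH3-only gene best known from neurons, stood at 0.396 FPKM with CBD and under 0.01 in the other 3 columns (q = 0.0922 in the authors' deposited table), a difference that has the same direction as the neuron markers. Among the remaining relatives none of 5 tested passed with CBD. With 4-OHT Bnip3, a hypoxia-induced mitophagy receptor, rose from 17.8 to 80.6 FPKM, Bnip3l from 88.4 to 111 and Bcl2l12 from 11.6 to 14.3, while Bcl2l13 fell from 38.7 to 35.3. Of these 4, Bcl2l12 alone turned direction against the other control, which holds 14.7 FPKM of it. Bcl2l14 stood under 0.1 FPKM in all columns, and Bcl2l15, at 0.772 to 4.05 FPKM, passed neither test.

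The counts of the lists below stand beside the shares of all tested genes. Of those, 18.4% were called higher and 7.74% lower with CBD, and 27.2% higher and 16.9% lower with 4-OHT. Downstream of the mitochondria, none of 15 caspase and apoptosome genes passed with CBD. With 4-OHT 6 of the 15 rose and 4 fell, and the median log2 fold of the 15 was −0.05. Casp9, the initiator caspase of the apoptosome, rose from 7.97 to 10.98 FPKM, and Diablo, an inhibitor of IAP proteins released with cytochrome c, fell from 63.1 to 45.3. Against the other control column 5 of the 6 that rose kept their direction, Casp9 included, and none of the 4 that fell did: Diablo stands at 41.5 FPKM there. Over all genes called with 4-OHT, 51.2% of those higher and 34.9% of those lower kept it. Of 5 IAP genes, 2 fell with CBD, namely Birc5 (survivin, also a mitotic gene) from 115.8 to 49.7 FPKM and Birc6 from 22.97 to 10.9. Both also lie below the other control, and with the length trend removed the log2 fold of Birc6 was −0.32 in place of −1.06. With 4-OHT Birc2 and Birc3 rose, the latter from 6.16 to 9.76 FPKM, and Birc6 fell. Birc3 and Birc6 kept these directions against the other control and Birc2 did not.

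Of 4 genes that act on MCL1 protein turnover, Huwe1, a ubiquitin ligase for MCL1, fell with CBD from 29.3 to 9.41 FPKM, also against the other control. Its log2 fold was −1.63, and −0.89 with the length trend removed. With 4-OHT Huwe1 and Usp9x, a deubiquitinase for MCL1, fell, but both are higher than in the other control, by log2 folds of 0.11 and 0.28. Of 10 mitochondrial partner genes, 2 rose and 2 fell with CBD. Fis1 rose from 143 to 296 FPKM and Vdac3 from 123 to 175, while Opa1 fell from 23.6 to 14.4 and Dnm1l from 31.8 to 20.6. All 4 kept their direction against the other control, and with the length trend removed the log2 fold of Fis1 went from 1.05 to 0.59 and that of Opa1 from −0.71 to −0.34. With 4-OHT Dnm1l, higher, and Mfn2, lower, passed, and both turn against the other control, to log2 folds of −0.0232 and 0.23. Of 5 tested genes for death receptors or proteins that act with them, the receptor gene Tnfrsf1a and Tradd rose with CBD, the former from 0.0257 to 0.779 FPKM. Cflar, which does not encode a receptor, alone of 4 rose with 4-OHT. All 3 were also higher than in the other control.

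Of 18 tested genes for transcription factors that act on the family, 6 fell and none rose with CBD, with Runx1 from 92.6 to 47.4 FPKM and Nfkb1 from 61.4 to 36.2. Of the 6, 5 also lie below the other control column, as do 93.3% of all genes called lower with CBD, and Runx1 is the exception, with 38.0 FPKM there. With 4-OHT 8 rose and 3 fell, including Jun, from 6.34 to 9.79 FPKM, and Cebpb, from 3.46 to 2.31. Against the other control 2 of the 8 are still higher, and Jun, at 11.5 FPKM there, is not. Of the 3, 2 also lie below it, Cebpb among them. Their median log2 folds were −0.53 and 0.09, next to 0.29 and 0.05 over all tested genes.

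**Figure D4:**
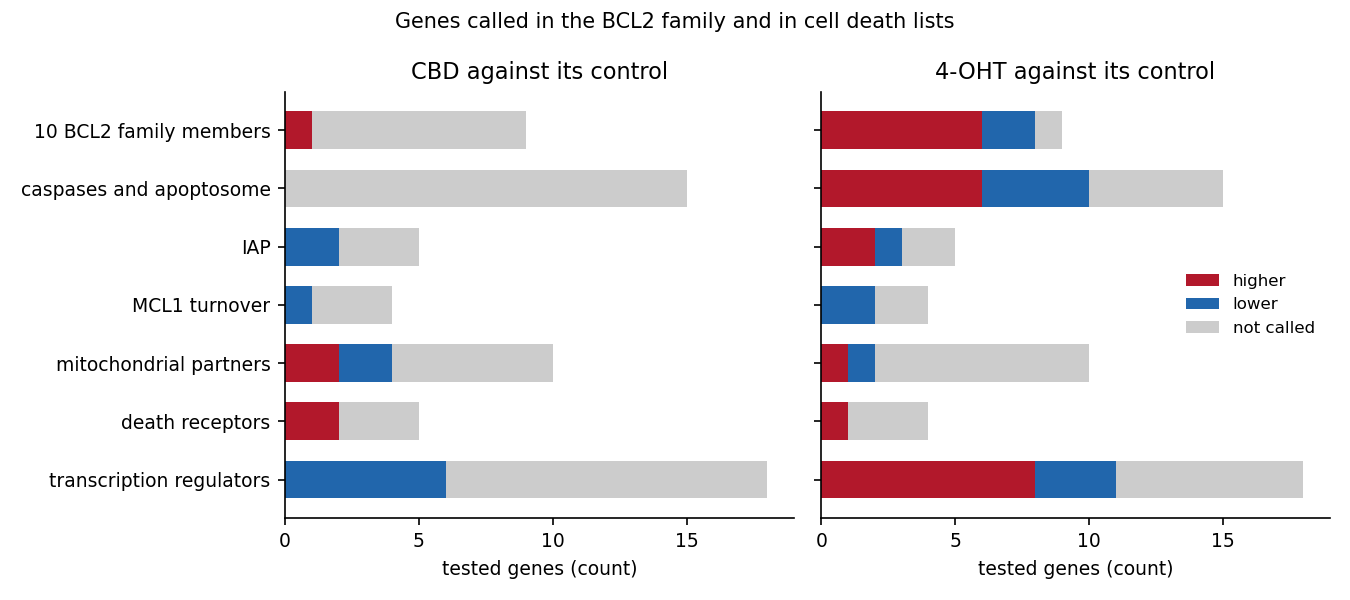
Number of tested genes that were called higher, called lower or not called (q under 0.05 in the authors' deposited tables) with CBD (left) and 4-OHT (right), for the BCL2 family members and 6 lists of cell death genes. Of the members, 1 of 9 was called with CBD and 8 of 9 with 4-OHT, and of all tested genes 26.2% and 44.1%.

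The genes most like the leading member of each class were found by the root mean square distance of their centred log2 FPKM over the 4 columns, among 8483 genes. Nearest to Mcl1 were Atp9b (distance 0.018), Slc25a12 and Pex3. Bax had Me1 (0.027), Immp1l and Snx8 as its nearest genes, and Bid had Tmem111 (0.027), Rnf139 and Urgcp. With 4 columns, such distances describe these values alone.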

How the data were processed

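RNA was measured by RNA-seq in 6 samples. Reads were aligned with Bowtie 0.12.2 to mm9 and groups were compared with Cuffdiff, per the submitters' processing notes; which Cuffdiff version, settings and gene models were used is not given in those notes. The deposited FPKM values were computed by the authors, 1 per group and table. A p-value and a q-value from the authors' test are deposited for each gene. Genes with status OK count as tested, and those with a deposited q under 0.05 as called; no test was added. Library values and depths are not used here.

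Log2 folds were computed with a pseudocount of 0.1 FPKM (Python 3.11.15, pandas 2.3.3, numpy 2.4.6). The length trend is the median log2 fold in 20 bins of the longest GENCODE vM21 transcript, fitted on genes whose FPKM reaches 10 in each control column and interpolated between bins; 98.6% of tested genes have a length. The code of this step was checked on simulated data with a straight-line trend and constant noise, which does not test how well it fits these data. Starts in the tables were increased by 1.

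Members and lists were chosen with earlier results of these data known. Named genes are the members, Id1, the other family genes, up to 2 called genes per further list and comparison, the 3 nearest genes of 3 members and genes between Id1 and Bcl2l1. Vdac3, and Dnm1l with CBD, were added so that all 4 mitochondrial partner genes called with CBD are named. Ddit3, Atf4, Trp53, Foxo1, Foxo3, Foxo4 and E2f1 were chosen after their values were seen, as were the marker, Hrk and motif examples. March5 had no entry under that symbol. Alternatives were other q and FPKM limits, pseudocounts, the other control column, median centring and the length trend.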

Additional observations from a re-analysis of the deposited data

How the results depend on the processing

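No paired analysis was possible because each table gives 1 value per group and no value per library; for the same reason no sample could be left out in turn. With CBD 1 member, Bax, was called under each q, fold and FPKM limit tried, and it kept its direction against the other control column, where no test exists. The CBD folds of Bcl2, Bcl2l1, Bok and Bcl2l11, none of them called, turned direction there. With 4-OHT 8 members were called, 7 at a q under 0.01 and 6 when only genes at 1 FPKM or more in both columns were tested, but 2 with a minimum of 2-fold and 1 with the same direction against the other control column. Of all tested genes 26.2% were called with CBD and 44.1% with 4-OHT, and 45% of the latter kept their direction against the other control column. Against that column the log2 folds with 4-OHT of called members reversed to 0.0287 (Bcl2), −0.11 (Bcl2l1), −0.29 (Mcl1), −1.70 (Bok), −0.65 (Bcl2l11), −0.76 (Bmf) and −2.18 (Bbc3), and against the mean of both controls to −0.0922 (Mcl1), −0.83 (Bok), −0.15 (Bcl2l11), −0.10 (Bmf) and −1.37 (Bbc3); the cause was not tested. Pseudocounts of 0.01 and 1 cannot reverse a fold, because the same amount is added to both sides. They changed its size: for Bok with 4-OHT the log2 fold was 1.92 and 0.83. Requiring the same direction once the median or the length trend (added after the data were seen) was removed kept the 1 and the 8 calls. Neither step could have turned a called member. The medians were 0.19 with CBD and 0.04 with 4-OHT, and the bin medians furthest from 0 were −0.74 and −0.07, all smaller in size than the called folds. The members 2-fold apart between controls numbered 4, and 3 with a pseudocount of 1. The survival share without Mcl1 was 17.96% and 10.9% in the control and CBD columns and 13.2% and 17.7% in the control and 4-OHT columns. With the other survival, effector and BH3-only genes of the family added, it was 34.8%, 26.5%, 25.9% and 29.98%. Unknown depth limits every low value, among them Bok at 0.373 FPKM.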
